A study of Mus musculus with 32 samples.

Results

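The oxidative stress defence genes described here are Hmox1, Nqo1, Gclm, Gclc, Txnrd1, Srxn1, Prdx1, Sod2, Slc7a11 and Nfe2l2, chosen by name. All 10 were found among the 45706 gene identifiers of the series, and all 10 were among the 15186 genes expressed highly enough to be tested. Their RNA was measured by sequencing in blood-forming stem and progenitor cells (HSPCs) of the bone marrow, sorted as CD45.1+/2+, Lin- cKit+ Sca1+ cells.

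These cells descended from healthy wildtype marrow, 800000 cells per recipient, that had been transplanted into lethally irradiated C57BL/6J mice (CD45.2) with 200000 partner marrow cells (CD45.1). In experienced mice the partner cells were homozygous for hMLL-AF9, a human leukaemia fusion gene switched on by doxycycline, and for its activator rtTA. In naive mice they were hMLL-AF9-null and homozygous for rtTA alone. Every group had the same schedule: 6 to 8 weeks of engraftment, 5 weeks of doxycycline, during which leukaemia arose in experienced mice, and 4 weeks after its withdrawal. Mice then received lipopolysaccharide (LPS), a bacterial product that triggers inflammation, or phosphate-buffered saline (PBS), and were sacrificed 24 h later. The groups are experienced LPS, experienced PBS, naive LPS and naive PBS, with 4 libraries each. The sorted cells came from the wildtype donors and not from the partner cells. Neither the age of the mice nor the LPS dose is given in the sources used here.

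NRF2, the protein made from Nfe2l2, is the main transcription factor of the response to oxidants. In unstressed cells KEAP1 marks it for destruction; oxidants release it, and with small MAF partners it binds antioxidant response elements near genes that make glutathione, reduce thioredoxin and break down haem. BACH1 and BACH2 compete for the same elements. Blood stem cells are known to be sensitive to reactive oxygen species, and inflammatory signals such as those from LPS are known to induce some defence genes, Sod2 among them, through NF-kappaB.

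Promoter sequence is shown for the members on which the results below turn, for those in which an antioxidant element core was found, and for Slc7a11. RefSeq (GRCm38.p6) promoter entries matched 8 of the 10 members, in 10 windows of 250 bases upstream of a start site, because Txnrd1 has several starts; Hmox1 and Gclc were not matched. Each window was searched on both strands. The core of the antioxidant response element, TGACNNNGC, was found in 4 of the 8 matched members, in 1 window each. That is 4 of the 10 windows, against 10.2% of 32851 RefSeq promoter windows of the same length. The GC box, GGGCGG, was found in 7 of the 8 matched members, again in 1 window each. That is 7 of the 10 windows, against 32.7% of the 32851. In Sod2, the mitochondrial superoxide dismutase, and in Nfe2l2 the GC boxes are in capitals. Those of Nfe2l2 lie on the opposite strand, so their reverse complement, CCGCCC, is printed. In Nfe2l2 the capitals nearest the 5′ end, 240 bases upstream of the start, mark the antioxidant core.
Sod2, chr17:13007690-13007802, plus strand: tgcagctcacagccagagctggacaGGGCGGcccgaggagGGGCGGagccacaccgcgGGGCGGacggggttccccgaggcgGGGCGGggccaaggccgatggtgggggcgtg
Nfe2l2, chr2:75704664-75704913, minus strand: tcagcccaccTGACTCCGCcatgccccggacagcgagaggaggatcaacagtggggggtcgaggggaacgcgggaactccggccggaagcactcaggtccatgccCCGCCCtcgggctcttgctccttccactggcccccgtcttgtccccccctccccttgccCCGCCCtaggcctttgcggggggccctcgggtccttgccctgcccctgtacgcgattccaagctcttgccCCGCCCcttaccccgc
In Gclm, Prdx1 and the second of the Txnrd1 starts the capitals mark the antioxidant core. It lies on the opposite strand, so its reverse complement is printed, and it starts 134, 133 and 92 bases upstream.
Gclm, chr3:122245398-122245456, plus strand: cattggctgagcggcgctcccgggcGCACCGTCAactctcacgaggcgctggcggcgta
Prdx1, chr4:116685441-116685499, plus strand: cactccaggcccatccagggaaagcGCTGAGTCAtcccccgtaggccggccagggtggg
Txnrd1, chr10:82859089-82859147, plus strand: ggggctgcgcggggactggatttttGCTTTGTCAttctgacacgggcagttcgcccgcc
The AP-1 letters TGANTCA, against 6.75% of windows, were found in Srxn1 and Prdx1, and 1 of the Prdx1 matches, 131 bases upstream, overlaps its antioxidant core. Slc7a11, the cystine importer, held TGATGCAA, the letters of a composite element for C/EBP and ATF partners such as ATF4, on each strand, marked in capitals; these letters were in 0.791% of windows.
Slc7a11, chr3:50443628-50443704, minus strand: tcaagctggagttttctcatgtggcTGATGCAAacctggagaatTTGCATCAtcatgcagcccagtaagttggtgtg
No antioxidant core was found in the windows of Sod2, Srxn1, Nqo1 and Slc7a11, which says only that these letters are not in these bases. A match is a description of sequence and not evidence of binding.

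Per unit of gene length, the members spanned a wide range of levels. In TPM, a unit scaled for gene length and sequencing depth, averaged over the 16 libraries, Prdx1 stood at 149.5, Gclm at 115.2, Txnrd1 at 58.1 and Nfe2l2 at 51.9. Sod2 at 33.8 and Gclc at 26.1 TPM followed. The remaining members were low: Hmox1 averaged 5.27 TPM, Srxn1 4.90, Nqo1 4.73 and Slc7a11 0.421. In these HSPCs the modifier subunit of glutamate-cysteine ligase (Gclm), the thiol peroxidase Prdx1 and thioredoxin reductase 1 (Txnrd1) were the most abundant members, while inducible haem oxygenase (Hmox1) and the quinone reductase Nqo1 were among the scarce ones. Changes are given below in CPM, counts scaled to the TMM-adjusted library size, by replicate 1 to 4, and as log2 fold changes of the fitted counts.

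Libraries held 7718857 to 22264672 expected counts. The mean correlation of log2 CPM with the other libraries of the group ran from 0.915 in experienced LPS replicate 4 to 0.979. That library also had the highest mitochondrial share of counts, 7.30%, followed by experienced PBS replicate 4 with 5.94%; the other 14 libraries had 1.91% to 4.26%. All 13 stem and progenitor markers, Kit, Ly6a and Cd34 among them, were detected in every group. After LPS, 7 of these 13 fell and 2 rose in experienced mice, 8 fell and 2 rose in naive mice, and 5 and 8 of 8 basophil and mast cell markers rose. Of all genes tested, 8.26% fell and 4.52% rose in experienced mice, and 11.9% fell and 9.81% rose in naive mice. These marker shifts stand beside the LPS comparisons below in both kinds of mice. Their part in those results was not tested. In bulk samples, fewer cells of a type and less RNA per cell cannot be told apart.

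**Figure D1:**
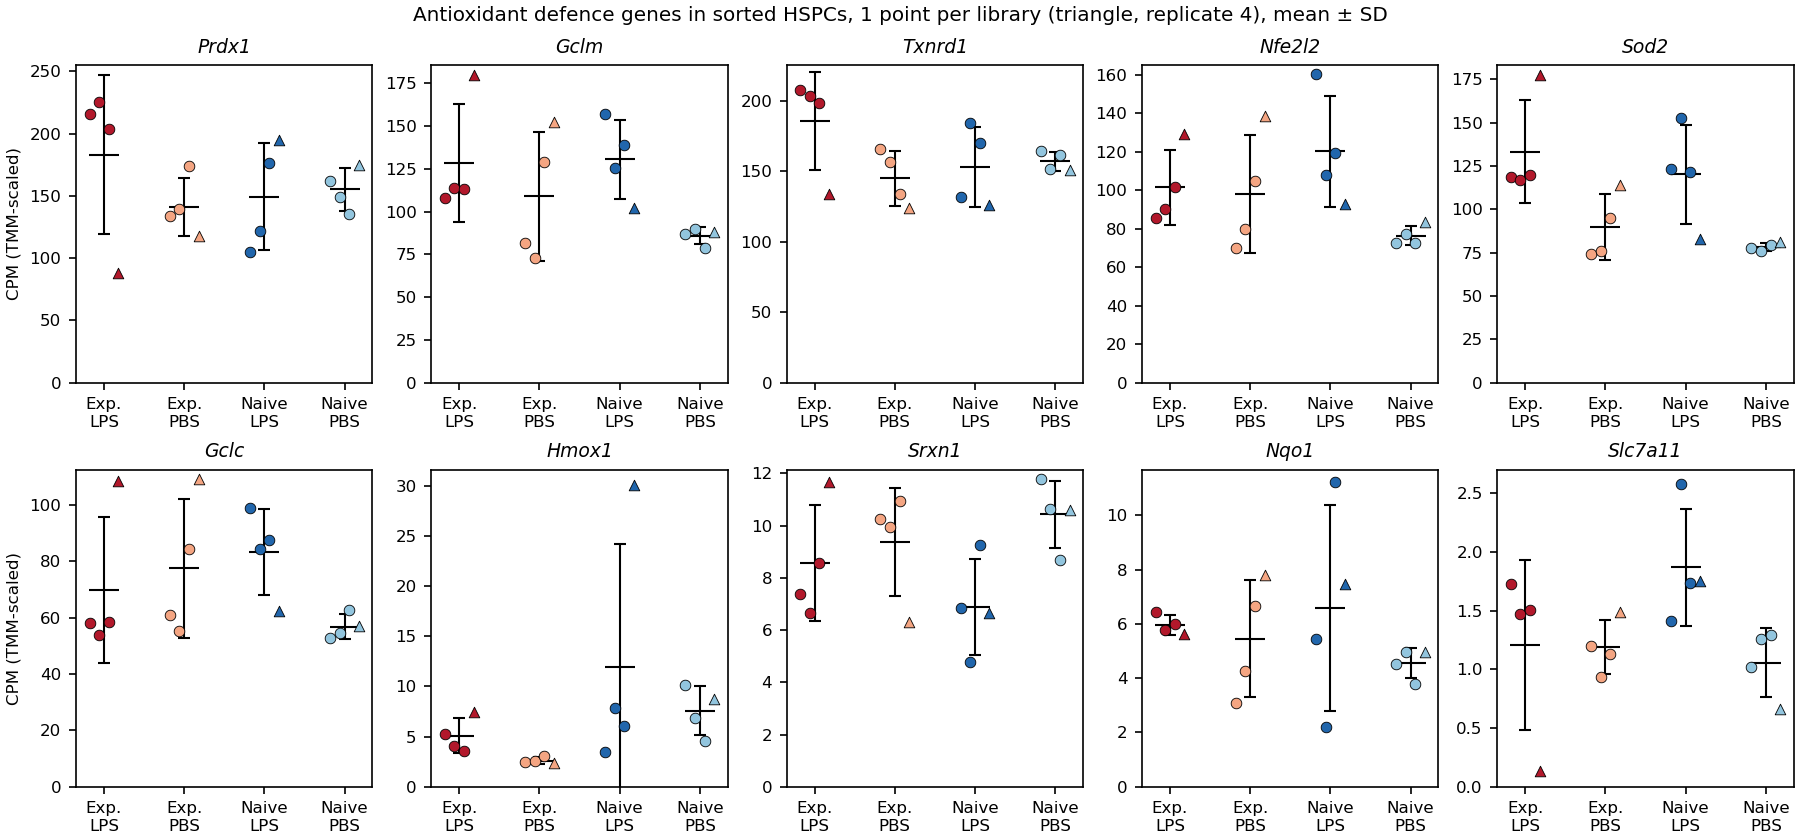
CPM of the 10 members (vertical axes, linear and starting at 0) in the 16 libraries, by group, 1 point per library with a triangle for replicate 4 and bars for mean ± SD (n = 4). Naive PBS libraries lie close together for most members; Sod2 is higher in LPS than in PBS libraries within each pair of groups, and Hmox1 is lowest in experienced PBS libraries.

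LPS in naive mice raised 2 of the 10 members, Sod2 and Nfe2l2, and lowered none. Of all genes tested, 9.81% rose and 11.9% fell in this comparison, so a count of 2 in 10 rests on few genes and is not read as a property of the list. Of the members, 5 of 10 had an unadjusted p under 0.05, against 35.4% of all genes. The median log2 change of the members was 0.58, against 0.0175 for all genes tested. In 4 members (Sod2, Nfe2l2, Gclm and Slc7a11) every LPS library exceeded every PBS library, a pattern shown by 12.5% of all genes, and in none was every LPS library lower, as in 16.8%.

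Sod2 (ENSMUSG00000006818, chr17:13006846-13040063, GENCODE gene span, GRCm38), which turns superoxide into hydrogen peroxide in mitochondria, had 123, 153, 121.5 and 83.05 CPM in naive LPS libraries, against 77.4, 75.7, 79.2 and 81.3 CPM in naive PBS libraries. The PBS libraries were nearly level, and the lowest LPS library, replicate 4, lay only just above them. Its log2 change was 0.62 ± 0.19 (SE), a 1.53-fold rise (edgeR quasi-likelihood test, Benjamini-Hochberg adjusted p = 0.0284). The call is close to its limit: adjusted p lay between 0.0505 and 0.0776 when any of naive LPS replicates 1 to 3 or any naive PBS library was left out, while the log2 change stayed between 0.50 and 0.64.

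Nfe2l2 itself (ENSMUSG00000015839, chr2:75675513-75704641) had 160.3, 108, 119 and 92.9 CPM in naive LPS libraries, against 72.4, 77.01, 72.8 and 83.4 CPM in naive PBS libraries. Every LPS library was higher than every PBS library, and replicate 1 was the highest. The log2 change was 0.65 ± 0.21 (SE) (edgeR adjusted p = 0.0331), a 1.57-fold rise. It was 0.48 without naive LPS replicate 1 (adjusted p = 0.114), and 0.63 to 0.71 without naive LPS replicate 3 or any 1 naive PBS library (adjusted p = 0.0506 to 0.0778).

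The glutathione genes had positive log2 changes in naive mice and did not pass the test. Gclm had 157, 125, 139 and 102 CPM in naive LPS libraries, against 86.8, 90.1, 78.8 and 88.05 CPM in naive PBS libraries, with no overlap between groups. Its log2 change was 0.61 ± 0.22 (SE) (edgeR adjusted p = 0.0611). Gclm was called in 7 of 25 alternatives, among them DESeq2 (adjusted p = 0.0406, where 12.7% of all genes rose) and edgeR on the 2 groups alone (adjusted p = 0.0134, where 1593 of 14533 genes rose), and its adjusted p ran from 0.0109 to 0.153 over all 25. Gclc, the catalytic subunit of the same ligase, had 99.01, 84.3, 87.6 and 62.4 CPM in naive LPS libraries, against 52.6, 54.6, 62.9 and 57.02 CPM in naive PBS libraries, and the groups overlapped in replicate 4 of the LPS libraries alone. The log2 change of Gclc was 0.55 ± 0.24 (SE) (edgeR adjusted p = 0.101), and it was called in 3 of 25 alternatives (adjusted p from 0.00986 to 0.394 over all). Slc7a11, which brings in the cystine for glutathione, had 1.41, 2.58, 1.74 and 1.75 CPM in naive LPS libraries, against 1.02, 1.26, 1.296 and 0.659 CPM in naive PBS libraries. These values rest on 11 to 37 counts per library, and the log2 change of 0.80 had a 95% interval of -0.23 to 1.83 (edgeR adjusted p = 0.257).

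None of the thioredoxin genes passed the test. Txnrd1, which recycles thioredoxin with NADPH, had 132, 184, 169.7 and 126 CPM in naive LPS libraries, against 164.5, 152, 161 and 151 CPM in naive PBS libraries, and its log2 change of -0.04 had an interval of -0.38 to 0.30. Prdx1 had a log2 change of -0.055 with an interval of -0.58 to 0.47. Srxn1, the sulfiredoxin that repairs overoxidised peroxiredoxins, had 6.86, 4.78, 9.27 and 6.67 CPM in naive LPS libraries, against 11.8, 10.6, 8.69 and 10.6 CPM in naive PBS libraries. Its log2 change was -0.59 ± 0.25 (SE) (edgeR adjusted p = 0.0964). Nqo1, which reduces quinones and is a standard NRF2 target, ran from 2.20 to 11.2 CPM in naive LPS libraries, against 3.79 to 4.97 CPM in naive PBS libraries, so the LPS libraries spanned the whole PBS range.

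Erythroid markers moved with the naive LPS result. Of 10 erythroid markers tested (11 listed), 6 rose in naive LPS libraries, Gata1 and Klf1 among them, where 9.81% of all genes rose. Their summed level was 868.1 to 2079 CPM in naive LPS libraries, against 417.1 to 514.7 CPM in naive PBS libraries, where Hba-a1 was at 0 in every library. The highest Nfe2l2, Gclm and Gclc values, in naive LPS replicate 1, stood beside an erythroid sum of 1882 CPM, and the highest sum, 2079 CPM in replicate 3, beside the second highest of each. The other two libraries went the other way: replicate 4, with an erythroid sum of 1286 CPM, had lower Nfe2l2, Gclm and Gclc than replicate 2, with a sum of 868.1 CPM. Globin genes were not among those that rose. The part of these cells in the rise of Nfe2l2 was not tested.

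**Figure D2:**
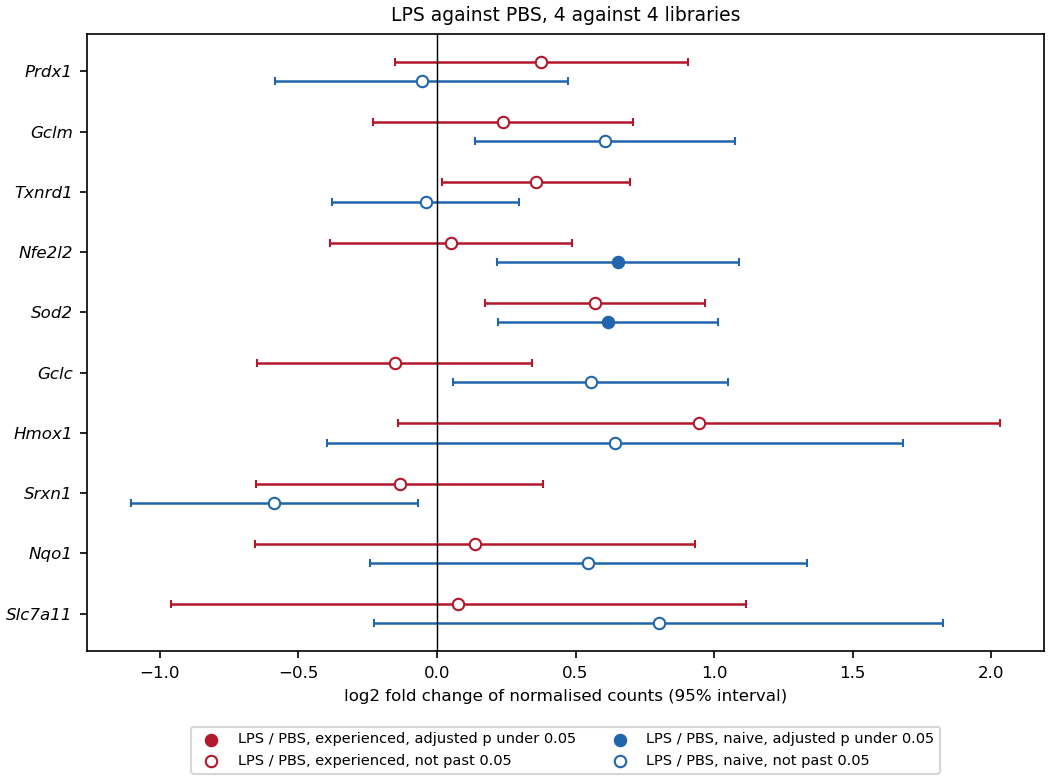
Log2 fold change of LPS over PBS (horizontal axis, with 95% intervals) for each member in experienced and in naive mice, 4 against 4 libraries each, filled where the adjusted p is under 0.05. Sod2 and Nfe2l2 in naive mice are filled, at 0.62 and 0.65, and the intervals of the 2 comparisons overlap for every member.

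In experienced mice LPS moved no member past the threshold: 0 of 10 were called, where 4.52% of all genes rose and 8.26% fell. By edgeR, 2 of 10 (Sod2 and Txnrd1) had an unadjusted p under 0.05, against 27.9% of all genes, and DESeq2 called 1, Sod2, where it called 7.76% of all genes higher. The median log2 change of the members was 0.188, against -0.0246 for all genes. LPS and PBS libraries did not overlap in 2 members, Hmox1 and Sod2, both higher after LPS, as were 6.45% of all genes.

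Sod2 had 118.5, 117, 120.0 and 178 CPM in experienced LPS libraries, against 74.0, 75.9, 94.8 and 114 CPM in experienced PBS libraries. All LPS libraries were above all PBS libraries, and replicate 4 was the highest of both groups. The log2 change was 0.57 ± 0.19 (SE) (edgeR adjusted p = 0.0551), and the difference from the response in naive mice was -0.045 with a 95% interval of -0.60 to 0.52. Sod2 passed the threshold in 7 of 25 alternative analyses, among them DESeq2 (0.60, adjusted p = 0.0232) and edgeR without experienced PBS replicate 4 (0.73, adjusted p = 0.0181).

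Hmox1 (ENSMUSG00000005413, chr8:75093621-75100589), which opens the haem ring and frees iron, carbon monoxide and biliverdin, had 5.28, 4.07, 3.58 and 7.42 CPM in experienced LPS libraries, against 2.51, 2.55, 3.07 and 2.32 CPM in experienced PBS libraries. The groups did not overlap, but these are 25 to 104 counts per library. The log2 change was 0.95 ± 0.51 (SE), with an interval of -0.14 to 2.03 (edgeR adjusted p = 0.247).

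Nfe2l2 had 85.8, 89.96, 102 and 129 CPM in experienced LPS libraries, against 69.7, 79.6, 105 and 138.5 CPM in experienced PBS libraries, and the groups overlapped almost wholly. The log2 change was 0.05 ± 0.21 (SE). Among PBS libraries the values were uneven, with replicates 3 and 4 above replicates 1 and 2. Gclm and Gclc had the same shape: Gclc stood at 58.2, 54.02, 58.5 and 108.5 CPM in experienced LPS libraries, against 61.03, 55.4, 84.3 and 109 CPM in experienced PBS libraries, and Gclm at 108, 113.5, 113 and 180.1 CPM in experienced LPS libraries, against 81.7, 73.02, 129 and 152 CPM in experienced PBS libraries. The erythroid markers summed to 866.4, 586.5, 877.8 and 1991 CPM in experienced LPS libraries, against 295.1, 359.7, 1045 and 2846 CPM in experienced PBS libraries, and replicate 4 was the highest in both; their part in these values was not tested.

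The thioredoxin genes differed between replicate 4 and the rest of the experienced LPS libraries. Txnrd1 had 207, 203, 198 and 134 CPM in experienced LPS libraries, against 165.5, 157, 134 and 124 CPM in experienced PBS libraries, and Prdx1 215.5, 225, 203.5 and 88.1 CPM in experienced LPS libraries, against 134, 139, 174 and 118 CPM in experienced PBS libraries. In both, LPS replicates 1 to 3 were above every PBS library and replicate 4 was among or below them. With all libraries the log2 changes were 0.36 ± 0.16 (SE) for Txnrd1 (edgeR adjusted p = 0.155) and 0.38 ± 0.25 (SE) for Prdx1 (adjusted p = 0.355). Without that library Txnrd1 rose by 0.51 ± 0.14 (SE, edgeR adjusted p = 0.0205) and Prdx1 by 0.63 ± 0.19 (SE, adjusted p = 0.0312), so 2 of 10 members were called, where 9.36% of 15558 genes then rose. Without both libraries of high mitochondrial share 2 members rose, Txnrd1 and Sod2, where 10.1% of 15484 genes rose.

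In the other members the groups overlapped. Srxn1 ran from 6.67 to 11.7 CPM in experienced LPS libraries, against 6.32 to 10.9 CPM in experienced PBS libraries. Nqo1 ran from 5.64 to 6.45 CPM in experienced LPS libraries, against 3.09 to 7.81 CPM in experienced PBS libraries. Slc7a11 had 1.73, 1.47, 1.51 and 0.138 CPM in experienced LPS libraries, against 1.203, 0.937, 1.13 and 1.49 CPM in experienced PBS libraries; the value of replicate 4 after LPS is 1 count.

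Whether a past leukaemia changed the LPS response was asked of the difference between responses, experienced minus naive. No member passed, 0 of 10 by edgeR, and none of the 15186 genes did (0.0%); 1 of 10 members, Gclc, had an unadjusted p under 0.05, against 4.58% of all genes. The difference was -0.71 for Gclc (interval -1.41 to -0.0051, adjusted p = 0.884) and -0.60 for Nfe2l2 (interval -1.22 to 0.011, adjusted p = 0.884). Over 24 alternatives the difference of Nfe2l2 ran from -0.74 to -0.38, and the smallest size was seen without experienced PBS replicate 4. Nfe2l2 was called in naive and not in experienced mice, and these intervals do not show that its responses differed. For Hmox1 the difference was 0.30, with an interval of -1.19 to 1.79. Over 24 alternatives it ran from -0.0066 without naive LPS replicate 1 to 1.36 without naive LPS replicate 4, and it was called in none.

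Experienced and naive HSPCs were compared at rest and after LPS to ask whether life beside a leukaemia leaves a mark on the defence genes. After PBS 0 of 10 members were called, as were 0.0% of all genes; 1 of 10, Hmox1, had an unadjusted p under 0.05, against 2.97% of all genes. After LPS 0 of 10 members and 0.0% of all genes were called, and 1 of 10, again Hmox1, had an unadjusted p under 0.05, against 3.23% of all genes. DESeq2 called no member in either comparison.

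Hmox1 was the member that stood furthest apart. After PBS it had 2.51, 2.55, 3.07 and 2.32 CPM in experienced libraries, against 10.2, 6.83, 4.56 and 8.74 CPM in naive libraries. All 4 experienced libraries were below all 4 naive libraries, as for 2.22% of all genes, and no member had every experienced library higher, as 1.82% of all genes did; the experienced Hmox1 values were close together. The log2 difference was -1.53 ± 0.51 (SE), 2.89-fold lower in experienced mice, with a 95% interval of -2.61 to -0.45, unadjusted p = 0.00825 and edgeR adjusted p = 0.988. It kept its sign in all 25 alternatives, from -1.71 to -1.08, and passed adjustment in none. Macrophages are known for high Hmox1; 12 macrophage markers summed to 44.7 to 57.6 CPM in experienced PBS libraries, against 46.6 to 58.5 CPM in naive PBS libraries, so these sums overlapped. Within that list 9 of the 12 markers had a negative log2 difference and 3 a positive one, with a median of -0.523; none was called, and 1, Fcgr1, had an unadjusted p under 0.05. The part of macrophage RNA in the Hmox1 difference was not tested.

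After LPS Hmox1 had 5.28, 4.07, 3.58 and 7.42 CPM in experienced libraries, against 3.51, 7.88, 6.07 and 30.1 CPM in naive libraries. The groups overlapped, and 1 naive library, replicate 4, was far above the rest with 343 counts. The log2 difference was -1.23 ± 0.50 (SE) (unadjusted p = 0.0264, edgeR adjusted p = 0.9999), but -0.19 without that library. Its removal also turned the log2 change after LPS in naive mice to -0.39 from 0.64, neither called. The macrophage sum in that library was 46.0 CPM, the highest of 34.3 to 46.0 CPM over the naive LPS libraries. Naive PBS libraries had higher sums, 46.6 to 58.5 CPM, with Hmox1 at 4.56 to 10.2 CPM. The part of macrophage RNA in the value of that library was not tested.

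Over the groups Hmox1 averaged 5.09 ± 1.71 CPM in experienced LPS, 2.61 ± 0.319 in experienced PBS, 11.9 ± 12.3 in naive LPS and 7.58 ± 2.43 in naive PBS libraries (SD, n = 4 each). Ordered from the highest mean, these are naive LPS, naive PBS, experienced LPS and experienced PBS. The first place rests on naive LPS replicate 4: without it the naive LPS mean was 5.82 ± 2.19 CPM (SD, n = 3), below that of naive PBS, and the medians of all 4 libraries, 6.97 CPM in naive LPS and 7.79 CPM in naive PBS, also have naive PBS higher. Of the neighbours in that order, experienced LPS and experienced PBS alone did not overlap. The 5 genes whose log2 CPM was most like that of Hmox1 over the 16 libraries were ENSMUSG00000095306 (Pearson r = 0.758), Rps27a (0.745), Hist2h2ab (0.738), Hddc2 (0.713) and Coq2 (0.708). No other member was close: their r with Hmox1 ran from -0.185 for Gclc to 0.201 for Prdx1. These coefficients describe 16 libraries that differ in depth and group, and 3 of those 5 genes had their highest value in naive LPS replicate 4, as Hmox1 did.

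For the other members the intervals of the difference between experienced and naive cells were narrower than for Hmox1. After PBS Sod2 differed by 0.19 (-0.20 to 0.59), Txnrd1 by -0.12 (-0.45 to 0.22) and Prdx1 by -0.14 (-0.67 to 0.39) on the log2 scale, with 95% intervals in parentheses. Nfe2l2, Gclm and Gclc were on average higher in experienced cells, by 0.36, 0.34 and 0.45, with intervals that include 0; in all 3 the naive PBS libraries fell within or below the range of the experienced ones. After LPS the same genes differed by -0.24, -0.026 and -0.26. The intervals of Nqo1 and Slc7a11 were wide, -0.54 to 1.04 and -0.88 to 1.19 after PBS.

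**Figure D3:**
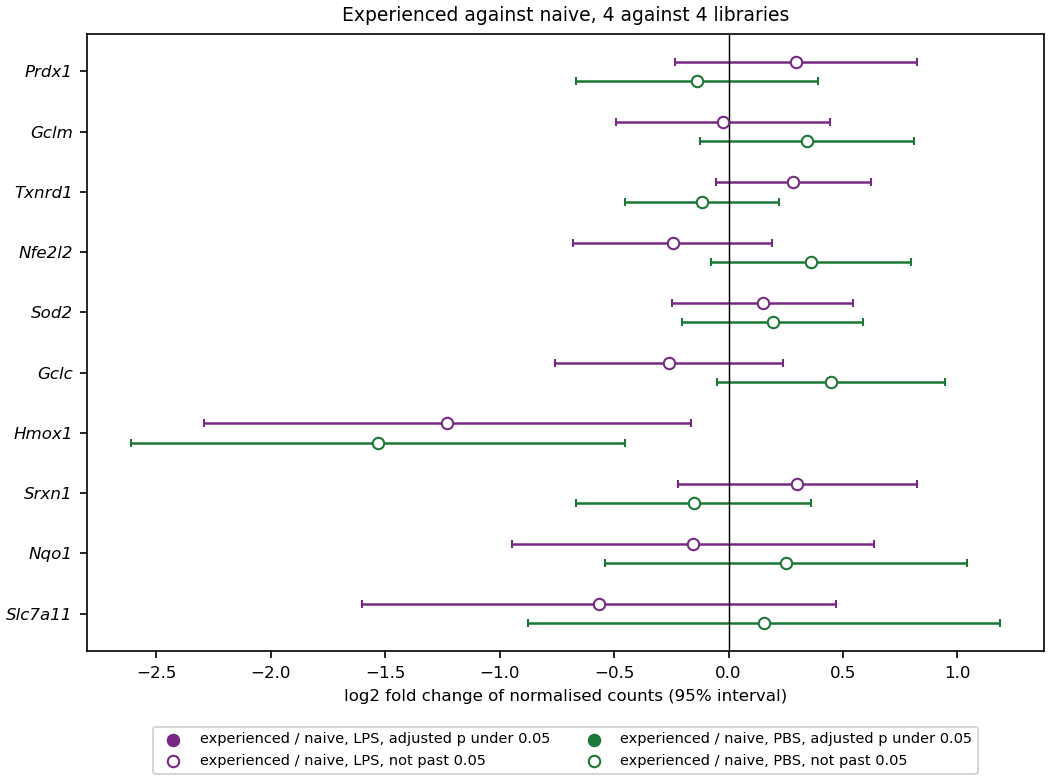
Log2 fold change of experienced over naive HSPCs (horizontal axis, with 95% intervals) after LPS and after PBS, 4 against 4 libraries each. No point is filled, since no adjusted p was under 0.05, and Hmox1 lies furthest left, at -1.23 after LPS and -1.53 after PBS.

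The members sit in a wider defence network, described by 9 lists of 104 other genes, of which 103 were tested. After LPS 13 rose and 6 fell in experienced mice, where all genes did so in 4.52% and 8.26%. In naive mice 19 rose and 11 fell, where all genes did so in 9.81% and 11.9%. On the log2(TPM + 1) scale, which shifted the median of all genes to -0.128 in experienced and -0.0869 in naive mice, limma called 8 higher and 6 lower in experienced mice and 6 higher and 12 lower in naive mice. No gene of these lists was called between experienced and naive cells or for the difference between responses, where edgeR called 0.0% of all genes.

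Among regulators of NRF2, Bach2 fell in both kinds of mice. This repressor of antioxidant elements, also known for its role in lymphoid commitment, had 9.603, 9.61, 9.002 and 12.2 CPM in experienced LPS libraries, against 44.5, 41.1, 23.3 and 24.8 CPM in experienced PBS libraries. In naive mice it had 9.69, 12.1, 5.97 and 8.42 CPM in LPS libraries, against 32.5, 38.1, 39.5 and 30.6 CPM in PBS libraries. The log2 changes were -1.73 ± 0.24 (SE) in experienced and -1.97 ± 0.24 (SE) in naive mice, with edgeR adjusted p = 3.07e-04 and 6.29e-05, and Bach2 was called in all 25 alternatives in each. Lymphoid markers moved with it: 9 of them summed to 1.56 to 4.27 CPM in experienced LPS libraries, against 11.99 to 68.02 CPM in experienced PBS libraries, and to 2.57 to 5.35 CPM in naive LPS libraries, against 15.8 to 27.8 CPM in naive PBS libraries, with no overlap in either. Of the 6 tested, Jchain fell in both and Pax5 in naive mice, and none of the 9 was at 0 in every library of a group. Within experienced PBS libraries the order differed: the lymphoid sums were 31.8, 19.1, 68.02 and 11.99 CPM by replicate 1 to 4. The highest sum, in replicate 3, stood beside the lowest Bach2 value, 23.3 CPM, and the lowest sum beside 24.8 CPM. The part of lymphoid cells in the fall of Bach2 was not tested. Keap1, which holds NRF2 in check, changed by 0.14 (-0.10 to 0.38) in experienced and 0.20 (-0.043 to 0.43) in naive mice and was not called, and Bach1 was not called either. Rbx1, part of the ligase that marks NRF2, rose in experienced mice by 0.49 (adjusted p = 0.0333) and was called in 16 of 25 alternatives. Its change in naive mice was 0.35 (edgeR adjusted p = 0.089), not called.

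The glutathione list has 22 genes: in experienced mice LPS raised 1 and lowered 2, and in naive mice it raised 2 and lowered 4. Of all genes, it raised 4.52% and lowered 8.26% in experienced mice, and raised 9.81% and lowered 11.9% in naive mice. Those that fell were transferases and a peroxidase, and a transferase, Gstm5, was among those that rose. Gstm1, a glutathione transferase, had 36.6, 34.7, 49.2 and 29.97 CPM in experienced LPS libraries, against 73.7, 73.2, 61.5 and 105 CPM in experienced PBS libraries, a change of -1.05, and it changed by -1.33 in naive mice. Mgst2 fell by 2.61 and 2.26 on the log2 scale in experienced and naive mice, and its LPS libraries held 5 to 38 counts each. Mgst1 and Gpx7 fell in naive mice, by 1.28 and 1.88. Gpx7 had 22, 4, 14 and 2 counts in naive LPS libraries. The changes in experienced mice were -0.85 for Mgst1 and -0.41 for Gpx7 (edgeR adjusted p = 0.0758 and 0.625), not called. Gstm5 had 41.6, 15.9, 38.9 and 30.5 CPM in naive LPS libraries, against 12.6 to 16 CPM in naive PBS libraries. Replicate 2 of the LPS libraries lay within the PBS range, and the log2 change of 1.21 ± 0.41 (SE) (edgeR adjusted p = 0.0469) was called in 12 of 25 alternatives. Ggct, which acts in glutathione breakdown, rose in naive mice by 0.78 and was called in 22 of 25 alternatives. Its change in experienced mice was 0.50 (edgeR adjusted p = 0.143), not called. Slc3a2, the partner chain of Slc7a11, rose in experienced mice by 0.63 and was called in 19 of 25. Its change in naive mice was 0.45 (edgeR adjusted p = 0.0525), not called. Gstm genes are a closely related family, so the split of reads among them is uncertain.

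Of 16 thioredoxin and peroxiredoxin genes LPS lowered 3 and raised 0 in experienced mice and lowered 4 and raised 1 in naive mice. Of all genes, it lowered 8.26% and raised 4.52% in experienced mice, and lowered 11.9% and raised 9.81% in naive mice. Txnip, which binds and inhibits thioredoxin, had 195, 203, 209 and 309.9 CPM in experienced LPS libraries, against 667, 635, 457 and 518 CPM in experienced PBS libraries (log2 change -1.31 ± 0.22 (SE)). In naive mice its log2 change was -0.82 ± 0.22 (SE). The sestrins Sesn1 and Sesn3, which restrain growth signalling under stress, fell in both, by 1.01 and 1.39 in experienced and by 1.21 and 1.11 in naive mice. The methionine sulfoxide reductase Msra fell in naive mice by 0.65. Of the 4 tested genes around superoxide and catalase, Park7 rose in experienced mice (0.59) and cytosolic Sod1 in naive mice (0.53), and of 10 NADPH supply genes Pgd alone rose, in naive mice (0.44). These 3 were called in 10, 19 and 17 of 25 alternatives. None of the 3 was called by edgeR in the other kind of mouse. There Park7 changed by 0.23 in naive mice (adjusted p = 0.411). Sod1 and Pgd changed by 0.44 and 0.34 in experienced mice (edgeR adjusted p = 0.0753 and 0.0972).

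In the NADPH oxidase list Cybb, the catalytic subunit of the oxidase that makes superoxide, rose in both. It had 17.3, 17.7, 15.1 and 9.49 CPM in experienced LPS libraries, against 3.09, 1.98, 1.13 and 4.18 CPM in experienced PBS libraries, and 8.43, 14.1, 12.1 and 5.88 CPM in naive LPS libraries, against 2.34, 2.81, 2.59 and 1.26 CPM in naive PBS libraries. These are a 5.79-fold rise in experienced mice (edgeR adjusted p = 6.22e-04) and a 4.46-fold rise in naive mice (adjusted p = 0.00119). None of the other 5 genes of the list was called. In naive mice the log2 changes were -0.79 for Ncf1, -0.66 for Ncf4, -0.49 for Rac2 and -0.48 for Cyba (edgeR adjusted p = 0.0561 to 0.128), each with an unadjusted p under 0.05. In 4 of the 6 genes of the list, Ncf4, Rac2 and Cyba among them, every naive LPS library was below every naive PBS library, as for 16.8% of all genes. The median log2 change of the list was -0.489 in naive and -0.0636 in experienced mice. Its summed level was 304.9 to 434.7 CPM in naive LPS libraries, against 516.2 to 543.3 CPM in naive PBS libraries, and 288.4 to 504.6 CPM in experienced LPS libraries, against 391.4 to 541.3 CPM in experienced PBS libraries. In naive mice limma on the 2 TPM scales did not call Cybb or Txnip.

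Haem and iron genes are the setting of Hmox1: 1 of 14 rose in experienced mice and 5 of 14 in naive mice, and none fell. Beside these counts, 9.81% of all genes were called higher and 11.9% lower after LPS in naive mice. The experienced shares were 4.52% higher and 8.26% lower. The median log2 change of the list was 0.041 in experienced and 0.752 in naive mice. Tfrc, the transferrin receptor, rose in both, by 1.68 in experienced and 2.28 in naive mice on the log2 scale. Slc40a1, the iron exporter ferroportin, had 14.3, 7.57, 14.99 and 33.96 CPM in experienced LPS libraries, against 3.19, 2.29, 23.9 and 39.7 CPM in experienced PBS libraries, and the groups overlapped. In naive mice it had 28.8, 12.9, 47.3 and 37.01 CPM in LPS libraries, against 5.62, 7.91, 6.87 and 2.52 CPM in PBS libraries (log2 change 2.46 ± 0.73 (SE), adjusted p = 0.02496). Blvrb, a biliverdin reductase, and the iron importer Slc11a2 rose in naive mice by 1.98 and 1.61. The calls of Slc40a1 and Blvrb in naive mice ended without naive LPS replicate 3 or without naive PBS replicate 1, 3 or 4, and that of Blvrb also without naive LPS replicate 1 or naive PBS replicate 2 (adjusted p = 0.0519 to 0.0846 over these). Blvrb and Slc40a1 were highest among experienced PBS libraries in replicate 4, the library with the erythroid sum of 2846 CPM. It also had the highest summed level of this list in that group, 2348 CPM. In experienced LPS libraries the sums went apart: replicate 4, with an erythroid sum of 1991 CPM, the highest, had the lowest list sum, 1757 CPM. In naive mice both sums were higher in every LPS library than in any PBS library. The part of erythroid cells in this list was not tested.

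Of 12 ATF4 targets, the wider set of the amino acid stress response to which Slc7a11 belongs, 4 rose in each kind of mouse and 1 fell in naive mice. The share of all genes called higher was 4.52% in experienced and 9.81% in naive mice. The share called lower was 8.26% and 11.9%. The amino acid carrier Slc7a5 rose by 1.12 in experienced and 0.73 in naive mice, and in naive mice its call ended without LPS replicate 3 or PBS replicate 2 or 4 (adjusted p = 0.0561 to 0.0864). Trib3 fell in naive mice, where it had 0.629, 0.258, 0.612 and 0.702 CPM in LPS libraries, against 4.46, 3.696, 4.32 and 4.49 CPM in PBS libraries. These LPS values rest on 12, 2, 13 and 8 counts. Of 10 NF-kappaB targets 4 rose in each, beside those same shares of all genes, and Icam1 fell in naive mice by 0.70. The chemokine Ccl5 rose 22.8-fold in experienced and 15.6-fold in naive mice, and the feedback inhibitor Tnfaip3 4.42-fold in experienced and 3.85-fold in naive mice. Sod2, known as a target of the same factor, had fitted folds of 1.49 in experienced and 1.53 in naive mice. Over the 10 NF-kappaB targets the median log2 change was 0.38 in experienced and 0.466 in naive mice. The log2 changes of Sod2, 0.57 and 0.62, were above these medians.

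**Figure D4:**
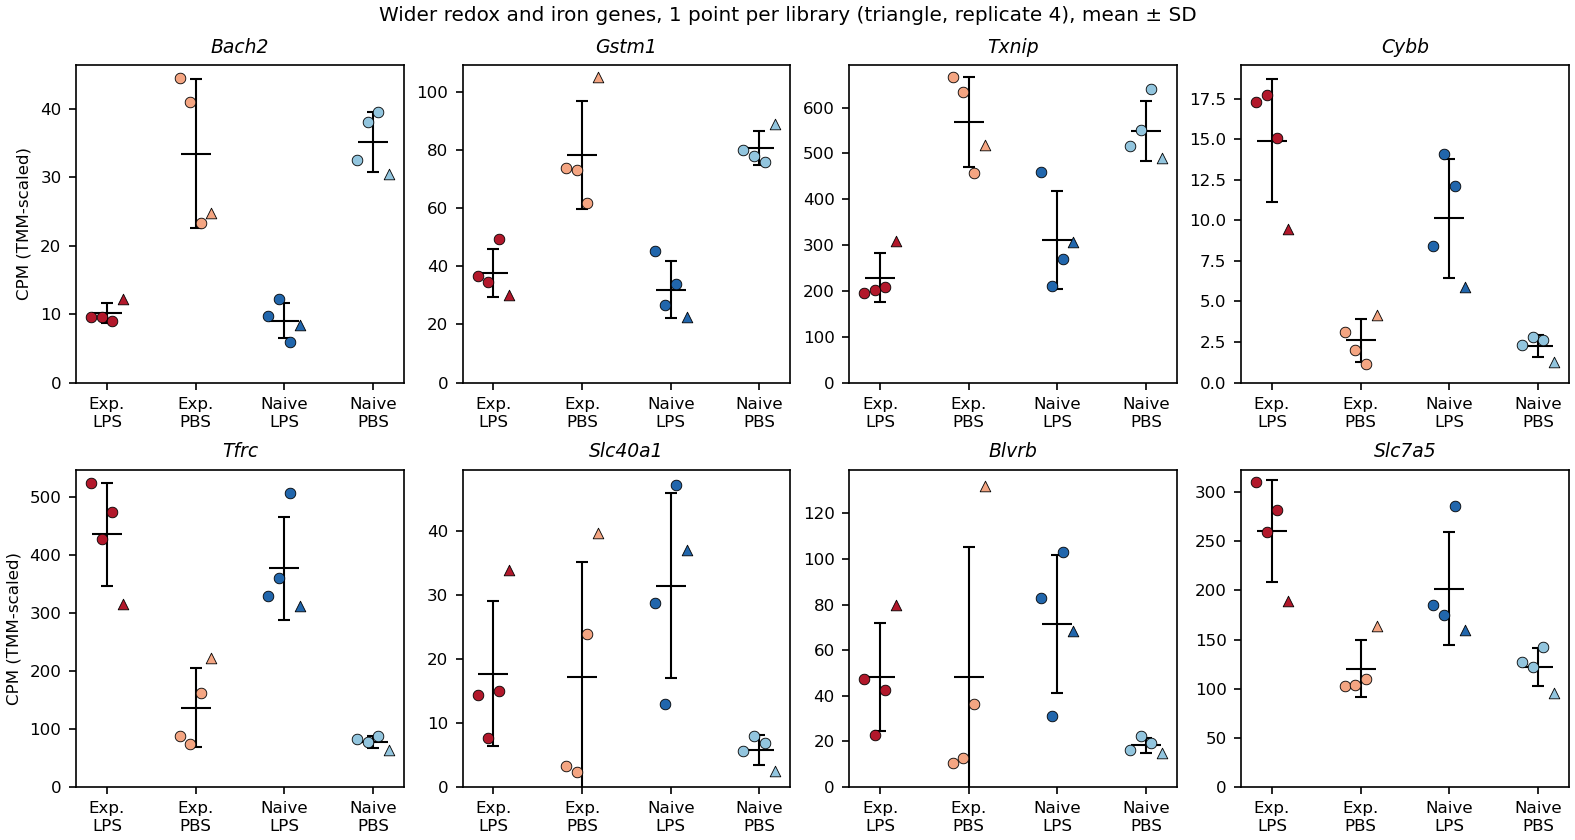
CPM of 8 genes of the wider lists (vertical axes, linear and starting at 0) in the 16 libraries, by group, 1 point per library with a triangle for replicate 4 and bars for mean ± SD (n = 4). Bach2 and Gstm1 are lower and Cybb and Tfrc higher in every LPS library than in any PBS library of the same mice, while Slc40a1 and Blvrb spread widely among experienced libraries.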

How the data were processed

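The submitters used Trim Galore 0.6.7 for trimming, STAR 2.7.10a for alignment to GRCm38 and RSEM 1.3.1 for quantification, per the submitters' processing notes. Neither annotation nor strand setting is given in the sources used here. Per the file headers, the deposited tables hold RSEM's expected counts, which may be fractional, and TPM, scaled for gene length. There is 1 table per biological replicate, while the labels list 2 technical replicates for each; the library kit they name is a droplet kit, but the tables hold 1 value per gene and were treated as bulk RNA-seq. Whether replicates were separate mice is not in the labels; p-values then measure only the spread between these samples, which may be technical.

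Expected counts were rounded. Genes passing edgeR's filter by group (15186, with 99.9275% of counts) were scaled by TMM and fitted with edgeR 4.0.16 (R 4.3.3, quasi-likelihood, 1 mean per group, 12 residual degrees of freedom, common biological coefficient of variation 0.306). A gene was called at an adjusted p under 0.05 (Benjamini-Hochberg, over all genes tested); checks used simulated data. Each count was repeated with DESeq2 1.42.0, limma 3.58.1 on log2(TPM + 1) and log2(TPM + 0.1), other scalings, no filter, a replicate block, the 2 groups alone, without both libraries of highest mitochondrial share, and without each library. Intervals are 95% intervals from the fit.

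Symbols came from GENCODE's GRCm38 annotation, which named 45143 of 45706 identifiers. Among members, Gclm overlaps Gm17494 on the other strand and Gm6061, which reached at most 5.65 and 4.18 CPM. The members and lists were chosen with earlier results of these data known. From each wider list, up to 4 called genes were named by lowest adjusted p, with Keap1 and Bach1, not called, the other called glutathione genes and 4 uncalled NADPH oxidase genes added after their values were seen.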

Additional observations from a re-analysis of the deposited data

Results flagged for a closer look

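In 7 of the 40 sets formed by 10 members and 4 groups, 1 library stood apart from the other 3 of its group, with a gap above 0.829 of the group's whole range; chance gives about 1 in 20. Experienced LPS replicate 4 accounts for 6 of the 7. In that library Gclm (180.1 CPM), Gclc (108.5 CPM) and Sod2 (177.8 CPM) were higher than in the other 3, and Txnrd1 (134 CPM), Prdx1 (88.1 CPM) and Slc7a11 (0.1375 CPM) were lower. Naive LPS replicate 4 was the other, with 30.1 CPM of Hmox1.

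Experienced LPS replicate 4 had the fewest counts (7718857), the fewest genes with at least 1 count (14887) and the highest mitochondrial share (7.30%), and its erythroid markers summed to 1991 CPM, against 586.5 to 877.8 CPM in the other experienced LPS libraries. The part of these differences in the 6 values was not tested.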

How the results depend on the processing

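Every count between experienced and naive cells, and every count for the difference between responses, was 0 under all alternatives run for members and wider genes alike. For LPS in experienced mice the members called were 0 as reported, 1 by DESeq2, 1 with RLE factors, 1 with no filter (Sod2 each time) and 2 without both libraries of highest mitochondrial share. Leaving out 1 library gave 0 to 2. For LPS in naive mice they were 2 as reported, 3 by DESeq2, 1 with upper-quartile factors, 0 by limma on log2(TPM + 1), 0 on log2(TPM + 0.1), 4 in a fit of the 2 groups alone, where 1593 of 14533 genes rose and 1944 fell, and 5 without both of those libraries, where 2426 of 15484 rose and 2377 fell; 4 of the 5 rose, and Srxn1 fell by 0.56. Leaving out 1 library gave 0 to 4, with 0 without naive LPS replicate 1 or 3 or any naive PBS library, and 4 without experienced LPS replicate 4, where 2184 of 15558 genes rose. Sod2 and Nfe2l2 each stayed called in naive mice in 16 of 25 alternatives, and no called member changed sign. Wider genes called in experienced mice numbered 19 as reported, 29 by DESeq2, 38 without both libraries, and 15 to 36 without 1 library. In naive mice they numbered 30 as reported, 18 and 17 by limma on the TPM scales, and 20 to 39 without 1 library. Over all genes, those rising and falling in experienced mice numbered 686 and 1254 as reported, 1178 and 1653 by DESeq2, 178 and 954 by limma on log2(TPM + 1), 479 and 700 in the fit of 2 groups, and 1559 and 1801 without both libraries; in naive mice 1490 and 1803 as reported and 374 and 1506 by limma on log2(TPM + 1). The causes of these differences were not tested.

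Whether the replicate numbers pair the samples is not settled. Same-numbered libraries of different groups correlated at -0.223 to 0.321 in their deviations, and 4 of 24 pairs were over 0.1. Between experienced LPS and experienced PBS the values were 0.175, 0.222, -0.123 and 0.321 for replicates 1 to 4. These correlations, from 4 libraries per group, cannot exclude a pairing. A replicate block left the members called at 0 in experienced and 2 in naive mice, and the wider genes at 20 and 32. The own number was the best match in 5 of 24 cases. The fit of 2 groups alone could not be made for the difference between responses, which needs all 4. Depth limits Slc7a11, with 1 to 37 counts per library, and Hmox1, with 25 to 343. Among the wider genes it limits Gpx7, Mgst2 and Trib3, which had low counts after LPS.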
